A study of Mus musculus with 5 samples.

Results

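Of the 12930 genes in the deposited table, 43 carry the name of a eukaryotic translation initiation factor, that is EIF followed by a digit, with pseudogene names left out. All 43 had a value in every siRNA library, so none was lost to missing values. They comprise 10 EIF2 genes (the subunits of eIF2 and of eIF2B, with Eif2a and Eif2d), 4 EIF2AK kinases, 12 EIF3 genes, 10 EIF4 genes, the inhibitor gene Eif4ebp1, and 6 other genes (Eif1, Eif1ad, Eif1ax, Eif5, Eif5b and Eif6). GENCODE has 12 further protein-coding genes with such names, among them Eif2b5, Eif3c, Eif4ebp2 and Eif5a, which were not analysed here. The values are log2 ratios of RNA in OG2 mouse embryonic stem cells: 2 libraries after an siRNA against Dhx30 (siDhx30), 2 after an siRNA against Tfam (siTfam), each set over the 1 library of the negative control (NC). The strain label of the cells names female mice, with (CBA/CaJxC57BL/6J) and 129Sv/Jae. All cells were held for 24 h with LIF and the inhibitors PD0325901 and CHIR99021. They were then transfected at 50 nM siRNA and kept for 36 h in a medium with bFGF and Activin A, so the control carries the same change of medium. NC enters only as the denominator and has no spread of its own. Nothing in the labels says that replicates came from separate cultures, so the p-values speak for the spread among the libraries alone, and that spread may be technical. In bulk RNA, fewer cells of a type and less RNA per cell cannot be told apart.

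Initiation begins when eIF2, loaded with GTP and the initiator methionyl-tRNA, joins the small ribosomal subunit together with eIF1, eIF1A, eIF3 and eIF5. The mRNA is brought in by the cap-binding protein eIF4E, the scaffold eIF4G and the helicase eIF4A, and eIF5B then joins the large subunit. Cells tune this step at 2 points: kinases phosphorylate eIF2 and so block its recycling by the exchange factor eIF2B, and 4E-binding proteins hold eIF4E away from eIF4G until mTOR phosphorylates them. Mitochondrial dysfunction is known to signal through the first of these points, with the kinase HRI (encoded by Eif2ak1) as a main link.

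Most initiation factor transcripts lay within a narrow band around the NC level, and no member passed an adjusted p of 0.05 in any comparison (limma with Benjamini-Hochberg adjustment over all 12088 genes with complete values). The inhibitor gene Eif4ebp1, the eIF3 subunit gene Eif3l and the eIF2B subunit genes Eif2b2 and Eif2b4 were among the 6 lowest means in both knockdowns, as was the kinase gene Eif2ak1. Eif3j1, Eif1, Eif2ak4 and Eif2b3 were among the 6 highest in both, and Eif3m was the highest in siDhx30. At an unadjusted p under 0.05, limma counted 0 of 43 members in siDhx30 against NC, where 5.04% of all genes were counted. It likewise counted 0 in siTfam against NC, where 6.11% of all genes were, and 0 between the siRNAs, where 2.79% were. At the adjusted threshold the share of all genes called was 0% in each comparison. The 95% interval of every member included 0 in each comparison. The median half-width of these intervals was 0.57 on the log2 scale against NC, a 1.49-fold change, and 0.47 between the siRNAs, so differences much smaller than these were not detectable. The intervals are not adjusted for the number of genes, and larger differences were not called either. Over all genes siDhx30 means ran from -4.74 to 4.33, and the smallest limma adjusted p was 0.298. It was 0.285 in siTfam against NC and 0.999 between the siRNAs.

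Directions rest on an inference. The column headings name neither denominator nor direction. All 1574 deposited values of the 842 genes that lack a value in some library were negative, whereas 48.7% of the values of complete genes were. A gene missing in some libraries and negative in the rest is what a minimum on counts leaves if NC is the numerator. The signs were therefore turned to give siRNA over NC, and with the deposited sign every direction below would be reversed. The targeted genes, whose values did not enter that choice here, were at log2 ratios of -0.40 and -0.20 for Dhx30 in siDhx30 and -0.28 and -0.02 for Tfam in siTfam. Both intervals included 0 (55.5% to 118.7% of NC for Dhx30 and 59.4% to 137% for Tfam), so a knockdown was not established at the RNA level. The table gives ratios and no levels, so the presence of cell type markers could not be checked. Of 18 pluripotency markers 6 had complete values (median 0.08 in siDhx30 and 0.26 in siTfam), with Pou5f1, Sox2 and Nanog not analysed here. Their siTfam means were mixed, 4 above NC and 2 below, from -0.25 for Sall4 to 0.53 for Otx2. Tfcp2l1, next to that median, had siTfam ratios of -1.14 and 1.71. Of 13 primitive endoderm markers 7 did (median -0.16 in siDhx30 and -0.38 in siTfam), with Gata4, Gata6, Sox7 and Sox17 not among them. Of 13 fibroblast feeder markers 4 did (median -0.37 in siDhx30 and -0.20 in siTfam). The part of these marker sets in the results was not tested. Read depth is not given in the sources used here.

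**Figure D1:**
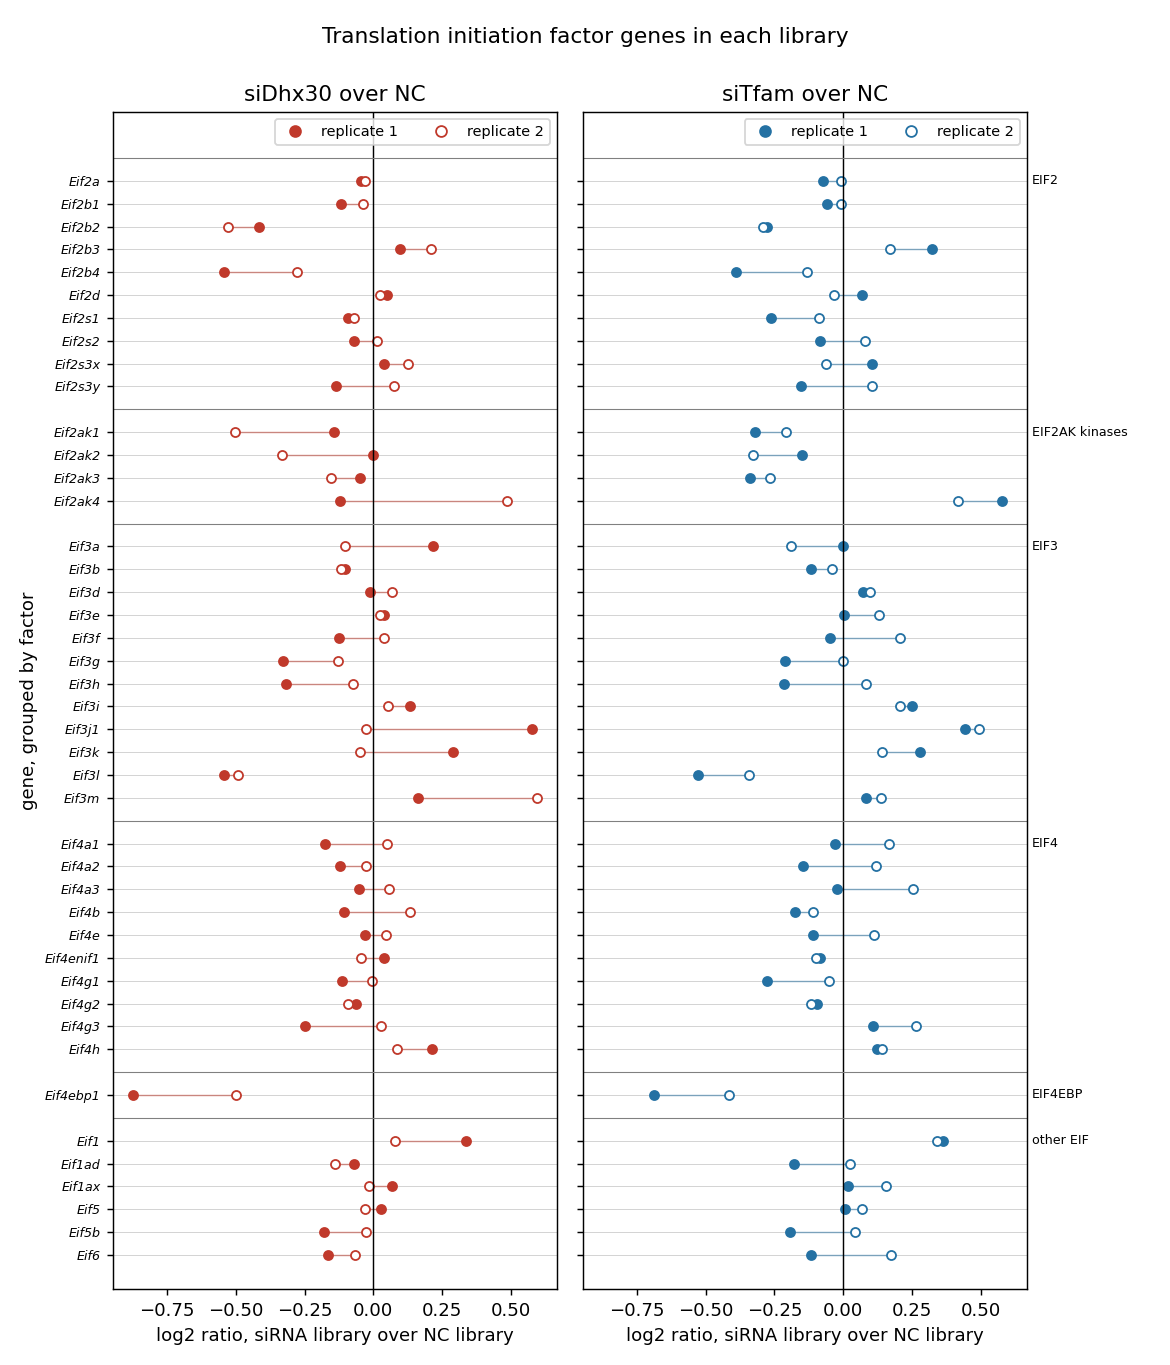
Log2 ratio over the NC library of each of the 43 initiation factor genes (rows, grouped by factor) in the siDhx30 libraries (left) and the siTfam libraries (right); filled and open circles are replicates 1 and 2. Eif4ebp1 has the lowest mean in both panels, -0.69 in siDhx30 and -0.55 in siTfam, and Eif2ak4 and Eif3j1 have siDhx30 replicates on opposite sides of 0.

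The proximal promoters of 4 of these genes are shown, since these genes lie near the ends of the family's range: the pair Eif3l and Eif2b2 for low ratios in all 4 libraries and the pair Eif3j1 and Eif1 for high ones in siTfam. Each run starts 150 bases before the transcription start that RefSeq gives on GRCm38.p6, is read 5′ to 3′ on the gene's strand, and ends at the GENCODE start where that comes first. Capitals mark matches on either strand to CCAAT (the NF-Y box), CACGTG (an E-box bound by MYC and related factors), CCGGAA (the core bound by ETS factors) or TGATGNAA (an element of the kind bound by C/EBP and ATF factors).
Eif3l (chr15:79075073-79075178, plus strand): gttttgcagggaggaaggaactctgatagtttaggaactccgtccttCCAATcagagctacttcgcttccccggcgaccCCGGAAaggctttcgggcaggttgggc
Eif2b2 (chr12:85219331-85219480, plus strand): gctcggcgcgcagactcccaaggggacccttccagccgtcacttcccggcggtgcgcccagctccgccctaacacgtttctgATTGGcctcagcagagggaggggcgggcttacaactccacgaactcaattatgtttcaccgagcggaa
Eif3j1 (chr2:122028430-122028545, plus strand): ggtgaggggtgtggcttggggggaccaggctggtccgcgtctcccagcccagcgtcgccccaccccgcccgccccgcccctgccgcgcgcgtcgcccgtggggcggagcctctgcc
Eif1 (chr11:100319799-100319884, plus strand): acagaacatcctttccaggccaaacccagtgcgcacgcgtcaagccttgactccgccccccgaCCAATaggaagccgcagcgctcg
The Eif3l run held a CCAAT box and a CCGGAA match, Eif2b2 and Eif1 a CCAAT box each, and Eif3j1 none of the 4 motifs. Full windows of 150 bases were found for 36 of the 43 members. CCAAT was present in 9 of the 36, or 25%, against 24.5% of all 32851 windows. CCGGAA was also present in 9 of the 36, or 25%, against 9.23% of all windows, CACGTG in 4, or 11.1% against 4.30%, and TGATGNAA in 1, or 2.78% against 2.23%. The RefSeq start used for Eif4g1, 1 of the 4 with CACGTG, lay 4414 bases from the GENCODE start. That distance was 433 bases for Eif4g3, which had CCGGAA, and 291 for Eif2b4, which had CCAAT. The windows of all genes include non-coding genes and alternative starts, and CCAAT was in the runs of low and high genes alike.

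The eIF2 complex itself stayed close to NC. Eif2s1, which encodes the alpha subunit that stress kinases phosphorylate, had ratios of -0.09 and -0.07 in the siDhx30 libraries and of -0.26 and -0.09 in the siTfam libraries. All 4 values were below 0, with means of 94.5% of NC in siDhx30 (95% interval 65.3% to 136.6%) and 88.5% in siTfam (61.2% to 128%). Eif2s2, the beta subunit gene, lay between -0.08 and 0.08 in the 4 libraries. The gamma subunit has copies on both sex chromosomes. The X copy, Eif2s3x, had ratios of 0.04 and 0.13 in the siDhx30 libraries and of 0.10 and -0.06 in the siTfam libraries. The Y copy, Eif2s3y, had ratios of -0.13 and 0.08 in the siDhx30 libraries and of -0.15 and 0.10 in the siTfam libraries. Neither copy leaned one way in all 4 libraries, and the copies are similar in sequence, so reads could be shared between them. The strain label names female mice, and a Y-linked copy is listed with a value in all 4 libraries. Eif2a and Eif2d, which encode separate proteins able to deliver initiator tRNA without eIF2, stayed between -0.07 and 0.07.

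The exchange factor eIF2B showed wider ratios than its substrate, and its measured subunits did not share a direction. Eif2b2, the beta subunit gene (ENSMUSG00000004788.11; GRCm38 chromosome 12, 85219481 to 85226628, plus strand), had ratios of -0.42 and -0.53 in the siDhx30 libraries and of -0.28 and -0.29 in the siTfam libraries. All 4 were below 0, and both siDhx30 values lay below both siTfam values. The mean was 72.1% of NC in siDhx30 (95% interval 50.7% to 102.4%) and 82.1% in siTfam (57.8% to 116.6%), and neither passed (limma adjusted p = 0.998 in siDhx30 and 0.950 in siTfam). Eif2b4, the delta subunit gene, had ratios of -0.54 and -0.28 in the siDhx30 libraries and of -0.39 and -0.13 in the siTfam libraries, or means of 75.2% of NC in siDhx30 and 83.5% in siTfam. Eif2b1, the alpha subunit gene, was slightly below 0 in all 4 libraries, from -0.12 to -0.0075. Eif2b3, the gamma subunit gene, went the other way, with ratios of 0.10 and 0.21 in the siDhx30 libraries and of 0.32 and 0.17 in the siTfam libraries. The median of the 4 subunit genes was -0.24 in siDhx30 and -0.15 in siTfam, against -0.01 in siDhx30 and -0.02 in siTfam over all genes.

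The eIF2 kinase genes were likewise split. Eif2ak1, which encodes HRI, the kinase that heme shortage and mitochondrial stress activate, had ratios of -0.14 and -0.50 in the siDhx30 libraries and of -0.32 and -0.21 in the siTfam libraries. Eif2ak2, encoding the double-stranded RNA sensor PKR, was at -0.0027 and -0.33 in the siDhx30 libraries and at -0.15 and -0.33 in the siTfam libraries. Eif2ak3, encoding the endoplasmic reticulum kinase PERK, was at -0.05 and -0.16 in the siDhx30 libraries and at -0.34 and -0.27 in the siTfam libraries. All 3 genes were thus below NC in every library, and their intervals included 0. Eif2ak3 was the one whose siDhx30 values both lay above both siTfam values, a difference of 0.20 (SE 0.15) that did not pass (limma adjusted p = 0.999). Eif2ak4, encoding the amino acid sensor GCN2, stood apart with ratios of -0.12 and 0.49 in the siDhx30 libraries and of 0.58 and 0.42 in the siTfam libraries. Its siTfam mean was 141.1% of NC (95% interval 74.8% to 266%), while its siDhx30 replicates lay on opposite sides of 0. Eif2ak1 overlaps the opposite-strand genes Aimp2 and Ankrd61, and strand use in counting is not given in the sources used here. Of the 43 members 11 overlap a protein-coding gene on the opposite strand, among them Eif2s2, Eif3m and Eif4enif1. These overlaps are of whole gene spans, not of exons.

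Eif4ebp1 had the lowest mean of all 43 genes in both knockdowns. It encodes 4E-BP1, the repressor that competes with eIF4G for eIF4E, and is a known ATF4 target gene (ENSMUSG00000031490.6; GRCm38 chromosome 8, 27260329 to 27276674, plus strand). Its ratios were -0.87 and -0.50 in the siDhx30 libraries and -0.69 and -0.42 in the siTfam libraries. All 4 libraries were thus well below 0, replicate 1 the lower in each pair. The mean was 62.1% of NC in siDhx30 (95% interval 37.2% to 103.8%) and 68.2% in siTfam (40.8% to 113.9%). Of all complete genes 6.33% had a lower mean in siDhx30 and 10.2% in siTfam. Limma gave an adjusted p of 0.998 in siDhx30 and 0.891 in siTfam. The siDhx30 to siTfam difference was -0.13 (SE 0.22). By contrast Eif4e, the cap-binding protein gene, was at -0.03 and 0.05 in the siDhx30 libraries and at -0.11 and 0.11 in the siTfam libraries.

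The 10 EIF4 genes had means between -0.11 and 0.15 in siDhx30 and between -0.16 and 0.19 in siTfam. Eif4a1 and Eif4a2, encoding the helicases of the cap complex, and Eif4a3, the related exon junction helicase, had means of -0.06, -0.08 and 0.0035 in siDhx30 and of 0.07, -0.01 and 0.11 in siTfam. The introns of Eif4a1 and Eif4a2 host small nucleolar RNAs, so their counts could include reads of those. Among the scaffold genes, Eif4g1 was at -0.11 and -0.0060 in the siDhx30 libraries and at -0.28 and -0.05 in the siTfam libraries. Eif4g2, encoding the relative DAP5 that lacks the eIF4E site, was the tightest of them, at -0.06 and -0.09 in the siDhx30 libraries and at -0.09 and -0.12 in the siTfam libraries. Eif4g3 had ratios of -0.25 and 0.03 in the siDhx30 libraries and of 0.11 and 0.27 in the siTfam libraries, so both siDhx30 values lay below both siTfam values. Eif4h, a helicase cofactor gene, was above NC in all 4 libraries, at 0.21 and 0.09 in the siDhx30 libraries and at 0.12 and 0.14 in the siTfam libraries. Eif4b, encoding the other cofactor, was at -0.11 and 0.13 in the siDhx30 libraries and at -0.17 and -0.11 in the siTfam libraries. Eif4enif1, encoding the eIF4E transporter 4E-T, stayed between -0.10 and 0.04.

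The eIF3 complex, the scaffold of the small subunit, held both the second lowest gene and one of the highest. Eif3l, encoding a peripheral subunit (ENSMUSG00000033047.5; GRCm38 chromosome 15, 79075179 to 79094405, plus strand), had ratios of -0.54 and -0.49 in the siDhx30 libraries and of -0.53 and -0.34 in the siTfam libraries. All 4 values were below 0, and the mean was 69.8% of NC in siDhx30 (95% interval 48% to 101.5%) and 73.9% in siTfam (50.8% to 107.5%). Its unadjusted p, 0.0561 in siDhx30 and 0.0884 in siTfam, was the smallest of the 43 members in each comparison with NC, but it did not pass (limma adjusted p = 0.998 in siDhx30 and 0.881 in siTfam). With trends on transcript length and GC content removed over 9257 protein-coding genes, the unadjusted p was 0.0310 in siDhx30, at a mean of -0.51 and an adjusted p of 0.869 (limma). In siTfam it was 0.0371, at a mean of -0.48 and an adjusted p of 0.751 (limma). Eif4ebp1 reached an unadjusted p of 0.0438 in siDhx30 in that fit, with a limma adjusted p of 0.905. These were the 2 of 43 members under 0.05 in siDhx30 there, where 491 of 9257 genes were. In siTfam Eif3l was the 1 of 43, where 582 of 9257 genes were. Eif3k, encoding the subunit that pairs with eIF3l at the edge of the complex, had ratios of 0.29 and -0.05 in the siDhx30 libraries and of 0.28 and 0.14 in the siTfam libraries.

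Eif3m, a subunit gene of the core octamer, had the highest mean of all members in siDhx30, with ratios of 0.16 and 0.60, against 0.08 and 0.14 in siTfam. All 4 values were above 0, and the siDhx30 mean, 130.1% of NC (95% interval 79.2% to 213.8%), was set largely by replicate 2. The gene span of Ccdc73 overlaps Eif3m on the opposite strand over 17425 bases, so the Eif3m counts could be less certain. Whether exons overlap was not examined. Eif3j1, encoding the loosely bound subunit near the decoding site, had ratios of 0.58 and -0.02 in the siDhx30 libraries and of 0.44 and 0.49 in the siTfam libraries. Its siTfam mean was 138.3% of NC (74.9% to 255.3%). By gene span Eif3j1 overlaps Spg11 on the opposite strand. Spg11 lay at 0.30 and 0.45 in the siDhx30 libraries and at 0.29 and -0.13 in the siTfam libraries. GENCODE also has the close copy Eif3j2, so the Eif3j1 counts could be less certain. Eif3i was above NC in all 4 libraries, at 0.13 and 0.05 in the siDhx30 libraries and at 0.25 and 0.21 in the siTfam libraries.

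Most of the other subunit genes lay closer to NC. Eif3a, the largest subunit gene, was at 0.22 and -0.10 in the siDhx30 libraries and at -0.0022 and -0.19 in the siTfam libraries, and Eif3b stayed between -0.12 and -0.04. Eif3d and Eif3e, whose proteins contact mRNA and mRNA-bound factors, had means of 0.03 and 0.03 in siDhx30 over both libraries and of 0.08 and 0.07 in siTfam. Eif3g was at -0.33 and -0.13 in the siDhx30 libraries and at -0.21 and -0.00056 in the siTfam libraries. Eif3f and Eif3h, encoding the subunits with MPN domains, had means of -0.04 and -0.20 in siDhx30 over both libraries and of 0.08 and -0.07 in siTfam. Of the 12 eIF3 genes 5 had a mean below NC in siDhx30 and 5 in siTfam, with medians of 0.03 and 0.07. Chromosome 15 carries 4 of the 12 (Eif3d, Eif3e, Eif3h and Eif3l), and their siDhx30 means ran from -0.52 to 0.03.

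Among the factors that select the start codon and join the subunits, Eif1, the gatekeeper of start codon choice, was above NC in all 4 libraries. Its ratios were 0.34 and 0.08 in the siDhx30 libraries and 0.36 and 0.34 in the siTfam libraries, or 115.6% of NC in siDhx30 (95% interval 77.4% to 172.6%) and 127.6% in siTfam (85.4% to 190.6%). Replicate 2 of siDhx30 was the low one. Eif1ax, encoding eIF1A, ranged from -0.02 to 0.16, and Eif1ad, grouped here by its name alone, from -0.18 to 0.03. Eif5, the GTPase-activating protein gene, ranged from -0.03 to 0.07 and Eif5b, the subunit-joining GTPase gene, from -0.19 to 0.04. Eif6, which encodes a factor that keeps free large subunits from joining, had ratios of -0.17 and -0.07 in the siDhx30 libraries and of -0.12 and 0.18 in the siTfam libraries.

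In siDhx30, 26 of 43 initiation factor genes, or 60.5%, had a mean below 0, where 51.9% of all genes did, with a median of -0.038 against -0.012 over all genes. Both siDhx30 libraries were below NC for 19 of 43 members, or 44.2%, where 34.9% of all genes were, and above it for 8, or 18.6%, where 32.1% of all genes were. Leaving out siDhx30 replicate 2 gave a median of -0.071, and leaving out replicate 1 gave -0.025. In siTfam, 23 of 43 means, or 53.5%, were below 0, where 52.7% of all genes were, with a median of -0.014 against -0.020 over all genes. There 17 members, or 39.5%, were below NC in both libraries, where 34.4% of all genes were, and 13, or 30.2%, were above it, where 32% were. The siTfam median changed sign between libraries, at -0.084 without replicate 2 and 0.069 without replicate 1. In all 4 libraries 14 members were below NC, where 22.4% of all genes were, and 6 were above it, where 20.1% were, or 32.6% and 14.0% of the members. All 4 ratios share the NC library, so these 4 values are not independent.

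Transcript properties moved with some libraries. Across 9257 protein-coding genes the Spearman correlation of the ratio with GC content was -0.33 in siDhx30 replicate 1 and -0.24 in siTfam replicate 1, and across the 43 members it was -0.27 and -0.14. With length and GC trends removed, the members' median was -0.070 in siDhx30 and -0.063 in siTfam. These correlations run across genes of 1 library each, which are not independent.

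Members varied less than genes at large. The quartiles of the members' siDhx30 means were -0.11 and 0.03, and those of all genes -0.21 and 0.18. In siTfam they were -0.11 and 0.09 for members and -0.23 and 0.18 for all genes. The median gap between replicates was 0.11 for members and 0.23 for all genes in siDhx30, and 0.16 and 0.24 in siTfam. The table gives no levels, so whether abundant genes show smaller gaps here was not tested.

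**Figure D2:**
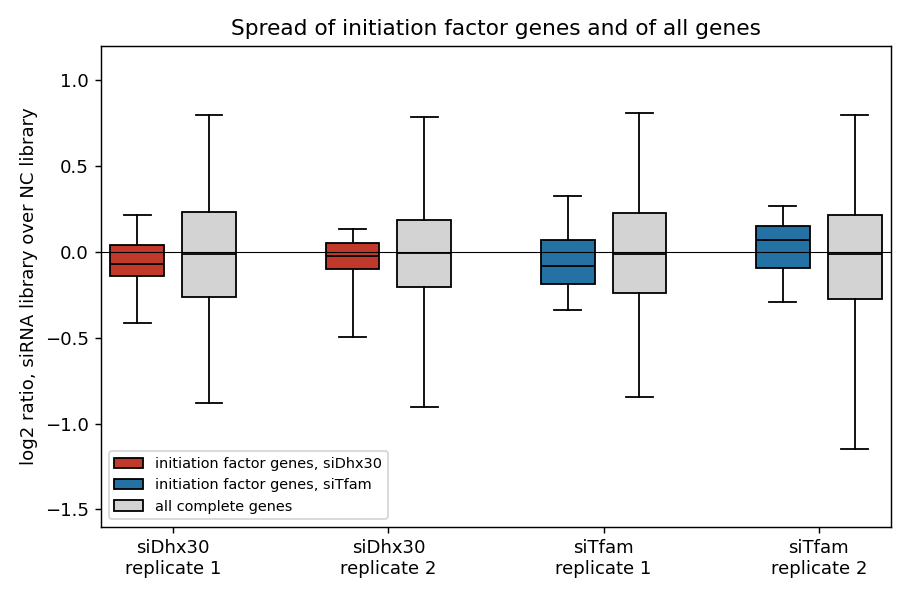
Log2 ratio over NC in each siRNA library for the 43 initiation factor genes (coloured, left of each pair) and all 12088 complete genes (grey); boxes span the quartiles with the median, and whiskers the 5th to 95th percentile. The members' boxes are narrower than those of all genes in each library, and their median is -0.07 in siDhx30 replicate 1 and 0.07 in siTfam replicate 2.

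In the direct comparison of siDhx30 with siTfam the shared NC denominator cancels if the deposited values are plain ratios. The authors' settings are not stated, so this could not be checked. Initiation factor genes had a median difference of -0.04 (-0.0015 over all genes), and 29 of 43 differences, or 67.4%, were negative, where 50.2% of all genes had a negative difference. Of the 12 EIF3 genes 10 were lower in siDhx30, with a median of -0.09. All 4 eIF2B subunit genes (median -0.12) and all 6 of the other EIF genes (median -0.05) were lower too. The 10 EIF4 genes leaned the other way, with 4 lower in siDhx30 and a median of 0.012. Of the 4 EIF2AK kinase genes 2 were lower (median 0.0056), as were 2 of the 4 eIF2 subunit genes (median 0.03). Neither Eif2a nor Eif2d was lower. Both siDhx30 values lay below both siTfam values for 5 members, Eif1, Eif2b2, Eif3d, Eif3i and Eif4g3, and above them for 5, Eif2ak3, Eif3m, Eif4b, Eif4enif1 and Eif4g2. That is 11.6% of members each way, where 14.3% of all genes lay below and 14.7% above. The lowest differences were -0.31 for Eif2ak4 (SE 0.27), -0.30 for Eif4g3 (SE 0.18) and -0.19 for Eif3j1 (SE 0.26). The highest were 0.27 for Eif3m (SE 0.21) and 0.20 for Eif2ak3. Eif4g3 had the smallest unadjusted p of the members, 0.179, and the limma adjusted p was 0.999 for each member. Leaving out siTfam replicate 2 turned that median to 0.0067, and leaving out siTfam replicate 1 gave -0.11.

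**Figure D3:**
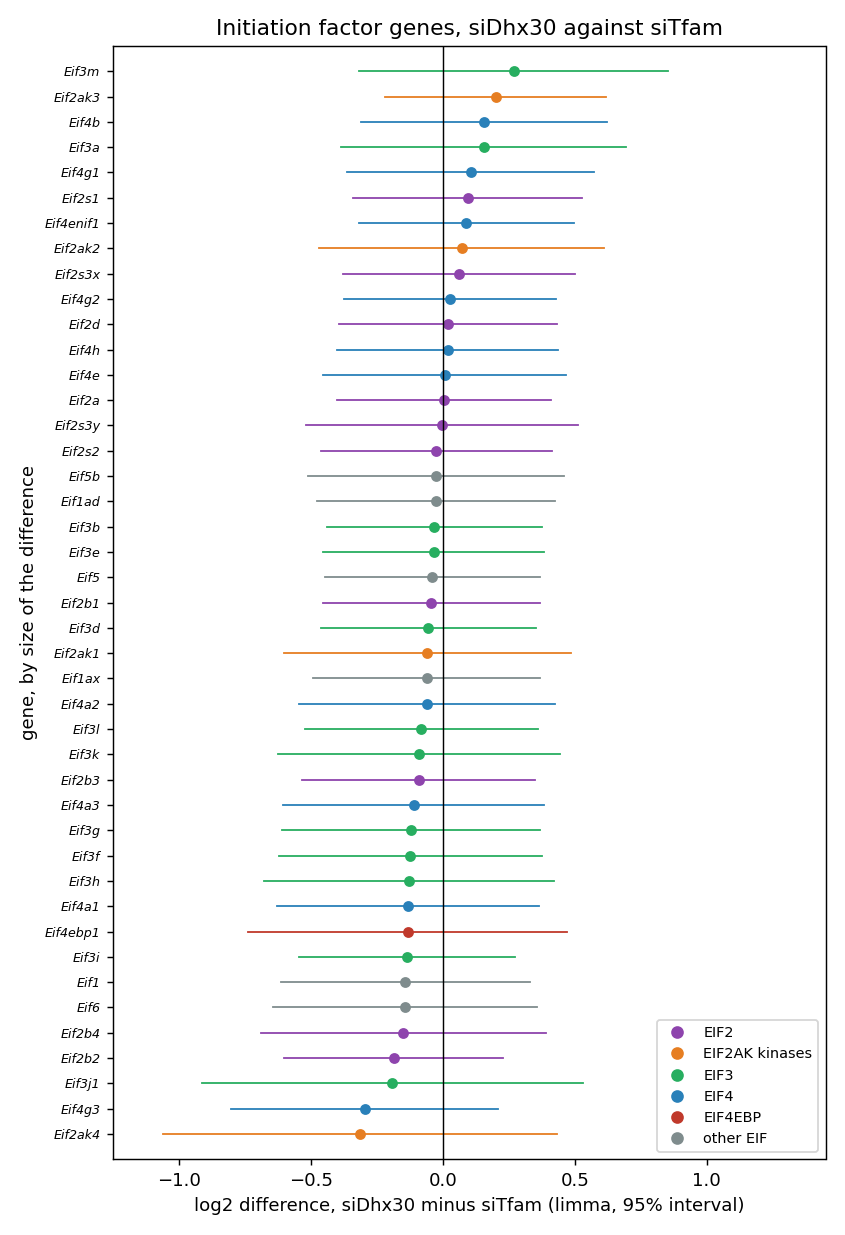
Log2 difference of siDhx30 minus siTfam for each of the 43 initiation factor genes, ordered by size; points are means of 2 libraries minus means of 2, bars are limma 95% intervals and colours give the factor. Every bar crosses 0, with points from -0.31 for Eif2ak4 to 0.27 for Eif3m.

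Genes that work beside the initiation factors were examined as 4 lists, whose counts below NC stand beside 51.9% of all genes in siDhx30 and 52.7% in siTfam. In the order given below, the lists held 28, 15, 25 and 20 genes, and 23, 10, 18 and 13 had complete values. No gene of the 64 passed an adjusted p of 0.05 (limma), where 0% of all genes did. At an unadjusted p under 0.05 limma counted 0 of 64 in siDhx30 against NC, where 5.04% of all genes were counted. It counted 2 in siTfam against NC (6.11% of all genes) and 3 between the siRNAs (2.79% of all genes). The 2 in siTfam were Nupr1 and Vldlr, and Mknk1 joined them between the siRNAs. Mknk1 was at -0.24 and -0.26 in the siDhx30 libraries and at 0.34 and 0.11 in the siTfam libraries. Initiation proteins without an EIF name (23 genes) had medians of -0.0077 in siDhx30 and -0.04 in siTfam. In this list 13 means were below NC in siDhx30 and 12 in siTfam. Ddx3y, the Y-linked gene of a helicase that aids initiation, was at -0.54 and -0.32 in the siDhx30 libraries and at -0.57 and 0.16 in the siTfam libraries. Pabpc4, a poly(A)-binding protein gene, was at -0.58 and -0.18 in the siDhx30 libraries and at -0.59 and -0.21 in the siTfam libraries. Paip2, encoding an inhibitor of poly(A)-binding protein, was at 0.33 and 0.05 in the siDhx30 libraries and at 0.42 and 0.44 in the siTfam libraries. Mtif2, the initiation factor gene of mitochondrial ribosomes, had means of -0.07 in both. Elongation and termination factors (10 genes) had medians of -0.16 in siDhx30 and -0.05 in siTfam, with 7 of 10 means below NC in each. Eef1b2, encoding an exchange factor of elongation, was at -0.55 and -0.45 in the siDhx30 libraries and at -0.53 and -0.25 in the siTfam libraries. Eef2k, the kinase gene that restrains elongation, was at -0.64 and -0.37 in the siDhx30 libraries and at -0.47 and -0.23 in the siTfam libraries. Gspt1, encoding the termination factor eRF3a, was at -0.45 and -0.26 in the siDhx30 libraries and at -0.53 and -0.31 in the siTfam libraries. These 3 were the only genes of the 10 below NC in every library, where 22.4% of all genes were. Being named for their large means, they give no separate support by sharing a direction.

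The 18 genes of mTOR signalling and other control of initiation had medians of -0.14 in siDhx30 and -0.18 in siTfam, with 14 means below NC in siDhx30 and 13 in siTfam. Rps6kb1, encoding the mTOR target S6 kinase 1, was at -0.44 and -0.64 in the siDhx30 libraries and at -0.36 and -0.50 in the siTfam libraries. Akt1s1, encoding the mTORC1 inhibitor PRAS40, was at -0.68 and -0.40 in the siDhx30 libraries and at -0.62 and -0.19 in the siTfam libraries. Rps6kb2, encoding S6 kinase 2, was at -0.28 and -0.03 in the siDhx30 libraries and at -0.42 and -0.39 in the siTfam libraries. These 3 genes were among the 9 of 18 below NC in all 4 libraries, where 22.4% of all genes were. They were named for their large means, so their shared direction is no separate support. Rictor, encoding a defining subunit of mTORC2, had the highest siDhx30 mean of the list, at 0.54 and 0.20 in the siDhx30 libraries and at 0.31 and -0.17 in the siTfam libraries. Dele1 and Oma1, which relay mitochondrial stress to HRI, had means of -0.21 and 0.17 in siDhx30 over both libraries and of -0.34 and 0.17 in siTfam.

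Genes induced when eIF2 is phosphorylated (13 of the 20 listed) had the widest median difference of these 4 lists, -0.21 for siDhx30 minus siTfam. Atf5, Chac1 and Ddit4 were among the listed genes not analysed here. The 7 primitive endoderm markers (Col4a1, Col4a2, Dab2, Lama1, Lamb1, Lamc1 and Sparc) differed between the same groups by a median of 0.40. Each was higher in siDhx30 than in siTfam, and their part in the result was not tested. The list of 13 genes was chosen with earlier results of these data known, so its difference is no independent support for an ATF4 response. The median was -0.03 in siDhx30 and 0.20 in siTfam, with 9 of 13 means below NC in siDhx30 and 2 in siTfam. In the direct comparison 12 of 13 were lower in siDhx30 than in siTfam, where 50.2% of all genes were. Nupr1, a stress-induced chromatin protein gene, was at 0.12 and -0.09 in the siDhx30 libraries and at 0.94 and 0.74 in the siTfam libraries. Vldlr, a lipoprotein receptor gene, was at -0.0012 and -0.24 in the siDhx30 libraries and at 0.56 and 0.73 in the siTfam libraries. Asns, the asparagine synthetase gene, was at 0.02 and -0.04 in the siDhx30 libraries and at 0.47 and 0.27 in the siTfam libraries. Atf4 itself was at -0.14 and 0.08 in the siDhx30 libraries and at 0.05 and 0.21 in the siTfam libraries. The siDhx30 to siTfam difference was -0.82 for Nupr1 (SE 0.18) and -0.77 for Vldlr (SE 0.18), each with a limma adjusted p of 0.999. Eif4ebp1, the known ATF4 target among the initiation factors, was below NC in both siTfam libraries. So was Slc3a2 of the list, at -0.22 and -0.04. The siDhx30 to siTfam difference of Eif4ebp1, -0.13 (SE 0.22), had the same sign as the list's median.

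**Figure D4:**
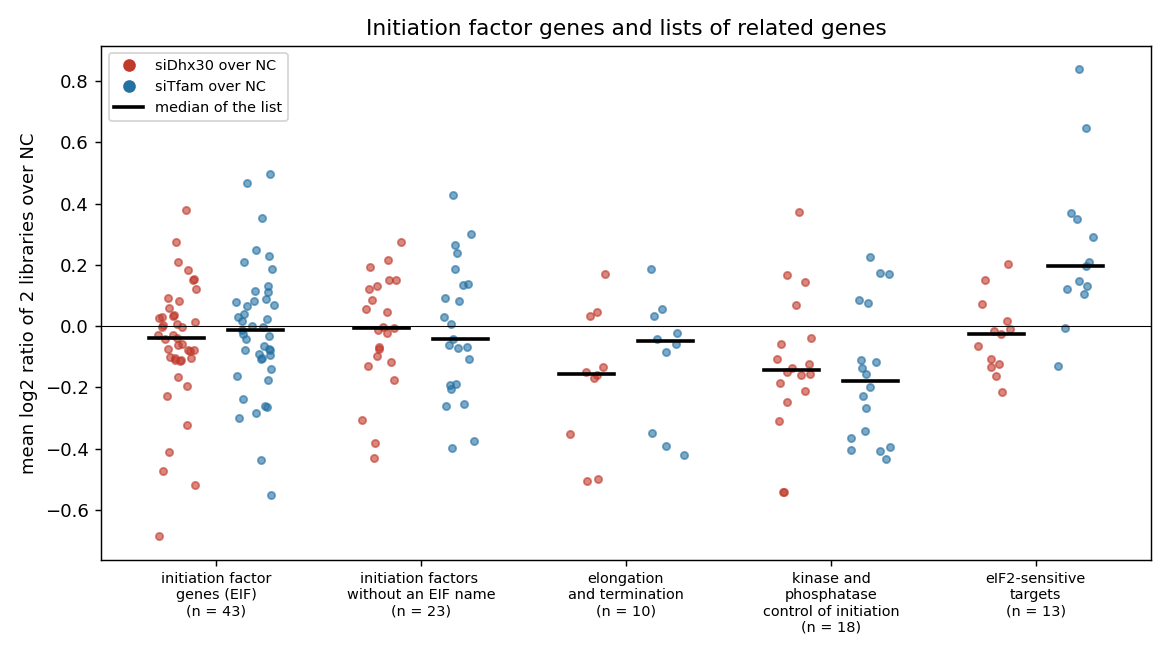
Mean log2 ratio of 2 libraries over NC, for siDhx30 (red) and siTfam (blue), of each gene in the initiation factor set and in 4 lists of related genes; black bars are list medians. The list of genes induced by eIF2 phosphorylation has a median of -0.03 in siDhx30 and 0.20 in siTfam, and the other medians lie between -0.18 and -0.0077.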

How the data were processed

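Libraries were made from DNase-treated, fragmented total RNA with a template-switching kit, per the labels' protocols. Among tools, bcl2fastq, HISAT2, featureCounts and DESeq2 appear in the submitters' processing notes, with GRCm38 as the build. The authors deposited log2 fold values, 1 column per siRNA library, per the file headers; their settings, count filter, use of strand and depth are not stated. The members and gene lists were chosen with earlier results of these data known. GENCODE M21 symbols matched 12660 of 12930 gene names. Signs were turned to siRNA over NC. All 12088 complete genes were fitted with limma 3.58.1 in R 4.3.3. The NC library, the denominator, entered as a column of zeros, with 1 coefficient per group, 2 residual degrees of freedom and robust moderation, so the spread of NC was taken to equal theirs. Adjusted p is Benjamini-Hochberg over all genes of a comparison, and intervals are at 95%. The fit was tested on simulated data. Values in every library are given for the 6 highest and 6 lowest members of each comparison, kinases, Eif4ebp1 and the X and Y copies, and for other members chosen after their values were seen. The 3 genes of largest absolute mean over NC in either siRNA are named per related list. Mknk1, Mtif2, Rictor, Dele1, Oma1 and Atf4 were added after their values were seen. Transcript length and GC content are those of the longest GENCODE transcript. Promoters are RefSeq windows on GRCm38.p6, the one nearest the GENCODE start. Alternatives left out each siRNA library, kept genes with missing values, centred libraries, used robust=FALSE, removed length and GC trends, or blocked on the replicate number. Python 3.11.15, pandas 2.3.3 and matplotlib 3.10.9 made tables and plots.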

Additional observations from a re-analysis of the deposited data

How the results depend on the processing

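No gene and no initiation factor passed an adjusted p of 0.05 in any of the 3 comparisons under any alternative run, and limma's count at an unadjusted p under 0.05 over all genes, 609, 739 and 337, became 968, 1164 and 367 with genes with a missing value kept, for siDhx30 over NC, for siTfam over NC and for the direct comparison. The 842 genes so added had all 1574 of their values above NC after the signs were turned. Their side appears fixed by how they entered, so the higher counts against NC are no separate result. The members' median in siDhx30 against NC, -0.038, was -0.070 with length and GC trends removed. It ranged from -0.071 to -0.025 when single libraries were left out. The same range was -0.084 to 0.069 in siTfam against NC and -0.11 to 0.0067 between the siRNAs. Among the 12 genes at the ends of each comparison, means that changed sign did so only when 1 library was left out. In siDhx30 against NC, Eif2ak4 ranged from -0.12 to 0.49 and Eif3j1 from -0.025 to 0.58. Between the siRNAs, Eif3a ranged from -0.0053 to 0.31, Eif3j1 from -0.49 to 0.11, Eif4g1 from -0.0088 to 0.22 and Eif6 from -0.29 to 0.0026. With the replicate block, fitted over the 4 siRNA libraries, the direct comparison again had 0 calls and a members' median of -0.043, and 566 genes at an unadjusted p under 0.05; deviations of same-numbered libraries had a correlation of 0.25 over 12088 genes. The labels do not say that a number marks a shared culture or day, and NC has no number, so no block could be fitted against NC. Without siTfam replicate 1 the unadjusted count of the direct comparison was 921, and without siDhx30 replicate 1 it was 665. Depth is unknown, so ratios of low counts could not be told from those of abundant genes.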
